A study of Mus musculus with 6 samples.

Results

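The genes described here are *Cck*, which encodes the precursor of the neuropeptide cholecystokinin (CCK), and the genes of its 2 receptors, *Cckar* and *Cckbr*. They were taken by symbol from the table of log2 CPM (reads per gene scaled to the size of the library), and 3 of its 13886 genes are members. The values come from RNA bound to tagged ribosomes, which was immunoprecipitated (the IP sample) from micro-punches of the medial amygdala (MeA) of female mice with the genotype Kiss1Cre+/Rpl22HA+/+ (called KissRibo mice), in which Cre under the control of *Kiss1* puts an HA tag on the ribosomal protein RPL22. Every female was ovariectomized (OVX) at 8 weeks of age, given estradiol (E2) for 4 days to raise Cre in these cells, and left for 7 days without it. The E2 group then carried a second E2 capsule for 5 days, while the OVX group had none. Each group had 3 libraries, each from 1 pool of 4 mice, so that 12 mice stood behind a group. No Cre-negative or input library was analysed here, and the RNA that the IP carried over from untagged cells was therefore not measured. The p-values below refer to the spread between pools.

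CCK is cut from a longer precursor by proprotein convertases, trimmed by carboxypeptidases, amidated at its end and sulfated on a tyrosine, and it is among the most abundant neuropeptides of the forebrain, where both excitatory neurons and a class of interneurons make it. CCKAR (the CCK1 receptor, *Cckar*) binds the sulfated peptide with much higher affinity than the unsulfated one and is best known from the gut, the vagus nerve and a few brain regions. CCKBR (the CCK2 receptor, *Cckbr*) also binds gastrin and is the main form in the brain. Both receptors act mainly through Gq proteins and phospholipase C, which releases calcium from stores and activates protein kinase C.

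*Cck* (ENSMUSG00000032532) lies at chr9:121489824-121495694 on the minus strand of GRCm38, and *Cckbr* (ENSMUSG00000030898) at chr7:105425731-105470898 on the plus strand. *Cckar* (ENSMUSG00000029193) lies at chr5:53697776-53707705 on the minus strand. None of them shares exonic bases with another annotated gene, which matters because the libraries were not stranded. RefSeq (GRCm38.p6) had a start-site window for 2 of the 3 genes, *Cck* and *Cckbr*. The bases before their starts are shown because the *Cck* promoter is known for an E-box and a cAMP-response-like element that lie close together. Capitals mark the E-box CACGTG and the element TGCGTCA, and the sequences are the 250 bases of chr9:121495695-121495944 read on the minus strand and the first 195 bases of the *Cckbr* window, chr7:105425481-105425675 on the plus strand. The rest of the *Cckbr* window, up to the start it was drawn for, is not printed because the RefSeq gene begins within it, but it was searched with the rest.
Cck: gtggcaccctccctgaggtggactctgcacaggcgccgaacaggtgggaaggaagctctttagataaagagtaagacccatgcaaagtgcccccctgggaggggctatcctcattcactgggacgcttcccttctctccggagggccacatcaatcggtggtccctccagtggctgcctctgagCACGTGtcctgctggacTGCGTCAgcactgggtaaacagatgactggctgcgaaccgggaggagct
Cckbr: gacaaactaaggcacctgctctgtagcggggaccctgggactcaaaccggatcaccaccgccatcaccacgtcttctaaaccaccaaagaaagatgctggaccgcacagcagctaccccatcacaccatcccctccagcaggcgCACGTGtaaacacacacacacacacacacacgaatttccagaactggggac
In *Cck* the E-box was at positions -66 to -61 from the start the window was drawn for and TGCGTCA at -49 to -43, and in *Cckbr* the E-box was at -106 to -101. On either strand, CACGTG occurred in 6.02% and TGCGTCA in 1.75% of all 32851 windows of 250 bases. The full cAMP-response element TGACGTCA (1.55% of windows), the estrogen-response palindrome, an inverted repeat of GGTCA with a gap of 3 bases (0.0639%), and its single arm GGTCA (35.2%, which includes the windows with the palindrome) matched in neither window of 250 bases. A match or its lack describes letters only, and no binding was measured.

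*Cck* was the ligand, and it was the most abundant of the 3 genes in every library. Its log2 CPM was 8.95, 8.88 and 9.07 in OVX replicates 1, 2 and 3, and 9.16, 9.34 and 9.11 in E2 replicates 1, 2 and 3. All 3 E2 libraries lay above all 3 OVX libraries, with E2 replicate 2 the highest, and only a narrow gap separated OVX replicate 3 from E2 replicate 3. On the linear scale these levels were 495, 472 and 539 CPM in OVX and 573, 650 and 552 CPM in E2 libraries, and they rest on 13985 to 22086 reads per library as rebuilt from the log2 values. The E2 level was 1.18-fold the OVX level, with a 95% interval of 1.06 to 1.31. The log2 difference of 0.24 had an unadjusted p of 0.00470 by limma on all 13886 genes, and after Benjamini-Hochberg adjustment limma gave 0.295, so *Cck* did not pass the threshold of 0.05. An exact permutation test of the 6 values gave p = 0.1, the smallest that 3 against 3 libraries allow. Over all genes, 0.288% passed the adjusted threshold, 8.56% had an unadjusted p under 0.05, and 6.85% had every E2 library above every OVX library, as *Cck* did. Groups without overlap in either direction were found for 13.7% of genes, 0.23% passed the adjusted threshold as higher and 0.0576% as lower with E2. In such pooled tissue, a difference in the share of cells that make a transcript and a difference in its amount per cell cannot be told apart.

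*Cckbr*, the brain-type receptor, stood at a moderate level with no separation of the groups. Its log2 CPM was 5.84, 5.45 and 5.69 in OVX replicates 1, 2 and 3, and 5.58, 5.57 and 5.74 in E2 replicates 1, 2 and 3. Both the highest and the lowest value belonged to OVX libraries, and the E2 libraries lay between them. The means were 5.66 ± 0.20 in OVX and 5.63 ± 0.09 in E2 libraries (SD, n = 3 each). The difference of -0.032 had an SE of 0.10 and an adjusted p of 0.968 in limma. Its 95% interval ran from 0.847-fold to 1.13-fold, so changes within those bounds in either direction are compatible with the values of these 3 pools a group. Without OVX replicate 1, the library with the highest value, the difference was 0.058 and had the opposite sign.

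*Cckar* was close to the limit of the table, at position 13871 of 13886 by mean log2 CPM. Its rebuilt read counts were 1, 12 and 34 in OVX replicates 1, 2 and 3, and 69, 43 and 33 in E2 replicates 1, 2 and 3. OVX replicate 1 held a single read, OVX replicate 3 held as many as E2 replicate 3 to within 1 read, and E2 replicate 1 was the highest, so the groups overlapped. As CPM without the offset of voom, these counts were 0.0354 (exact Poisson 95% interval 0.000895 to 0.197), 0.351 (0.182 to 0.614) and 1.21 (0.839 to 1.69) in the OVX libraries. They were 2.28 (1.77 to 2.89), 1.27 (0.916 to 1.70) and 1.02 (0.701 to 1.43) in the E2 libraries. These intervals cover counting error only, and reads without molecular identifiers are not independent molecules. OVX replicates 3 and 1 differed 34.2-fold with a counting interval of 5.74 to 1392, a spread inside 1 group that was wider than the gap between the groups.

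Summed over the libraries, *Cckar* had 47 reads in OVX and 145 in E2, a ratio of 2.89 after division by library size (counting interval 2.07 to 4.11). Without OVX replicate 1 the ratio was 2.03 (1.45 to 2.89). On the log2 scale the means were -1.80 ± 2.29 in OVX and 0.53 ± 0.60 in E2 libraries (SD, n = 3 each), a difference of 2.33 with an SE of 0.93 and an adjusted p of 0.495 in limma. An exact permutation test gave p = 0.2. The authors kept a gene when its mean CPM passed 1 in at least 1 group, and *Cckar*, with a mean of 0.549 CPM in OVX and 1.54 CPM in E2 libraries, passed only through the E2 group. A gene kept in this way had to be higher with E2, as for all 117 genes kept through the E2 group alone, so the direction is no support for a difference. The size of the log2 difference varied with the libraries and the scale used, as it was 1.11 without OVX replicate 1, 3.38 without OVX replicate 3, 1.77 on the scale of log2(CPM + 0.1) and 0.75 on that of log2(CPM + 1). The SD within groups was 1.67, against a median of 0.96 for the 83 genes with a mean log2 CPM within 0.5 of it.

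**Figure D1:**
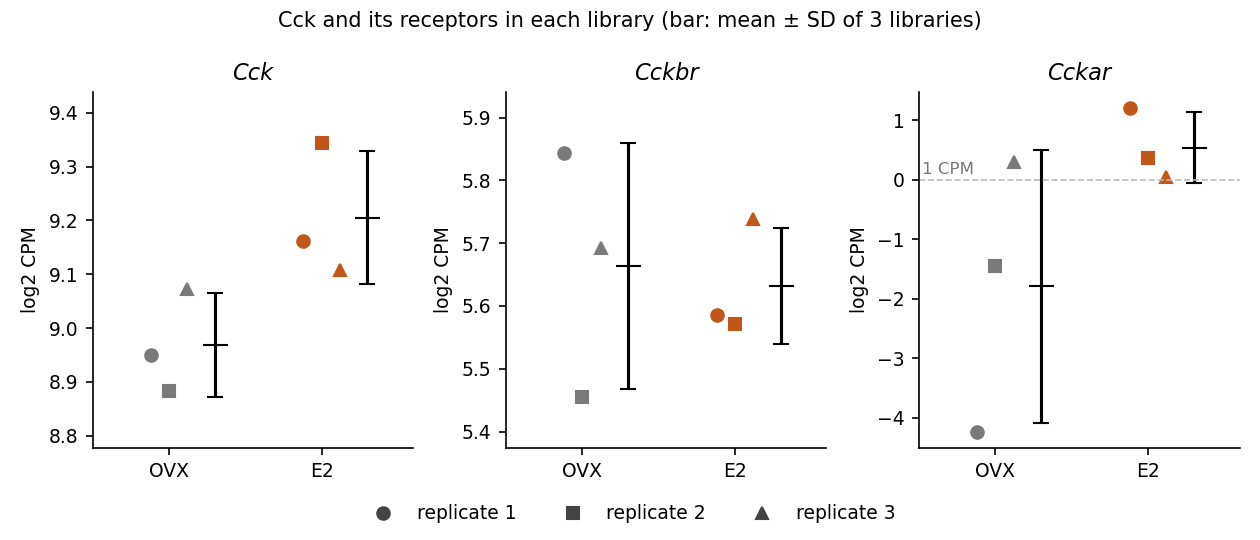
Log2 CPM of *Cck*, *Cckbr* and *Cckar* in each of the 3 OVX (grey) and 3 E2 (orange) libraries, with the mean ± SD of each group beside the points. The axes differ between panels and do not start at 0. The E2 libraries lie above the OVX libraries for *Cck*, the groups overlap for *Cckbr*, and for *Cckar* OVX replicate 1 lies at -4.24.

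The order of the 3 genes was the same in each library, with *Cck* first, *Cckbr* next and *Cckar* last, also when levels were compared per kilobase of the longest transcript (799, 2573 and 3230 bases). On that scale *Cck* averaged 9.41 log2 CPM per kilobase, *Cckbr* 4.28 and *Cckar* -2.32, and they took positions 16, 3490 and 13799 among the genes. The gaps between neighbours were larger than the spread of either gene over the libraries. The difference between ligand and main receptor, *Cck* minus *Cckbr* in log2 CPM per kilobase, was 4.79, 5.11 and 5.07 in OVX replicates 1, 2 and 3, and 5.26, 5.46 and 5.06 in E2 replicates 1, 2 and 3. The groups overlapped, because E2 replicate 3 lay below both of the higher OVX libraries. The mean difference between groups was 0.27 (exact permutation p = 0.3), with an SD of 0.17 in OVX and 0.20 in E2 libraries.

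Set against other precursors of neuropeptides and granins, *Cck* held the first place by level per kilobase. Of 47 precursor names, 27 were in the table, as 28 gene models because *Kiss1* has 2, and 20, *Avp* and *Oxt* among them, were not among the listed genes. *Scg2* (secretogranin II, a granule protein and precursor of secretoneurin) followed *Cck* at 9.25 log2 CPM per kilobase, then *Penk* (the enkephalin precursor) at 7.84, *Vgf* (precursor of several secreted peptides) at 7.78 and *Chgb* (chromogranin B) at 7.64. *Cck* ranged from 9.21 to 9.67 over the libraries and *Scg2* from 8.91 to 9.65, so these neighbours did not differ beyond their spread. *Cck* was first in 5 of 6 libraries, and in E2 replicate 1 *Scg2* (9.59) exceeded it (9.49). The place depends on the length used, since *Cck* came second to *Scg2* when the union of exons (1305 bases for *Cck*) was taken as length, at 8.70 against 9.25, and in place 4 by log2 CPM with no length.

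**Figure D2:**
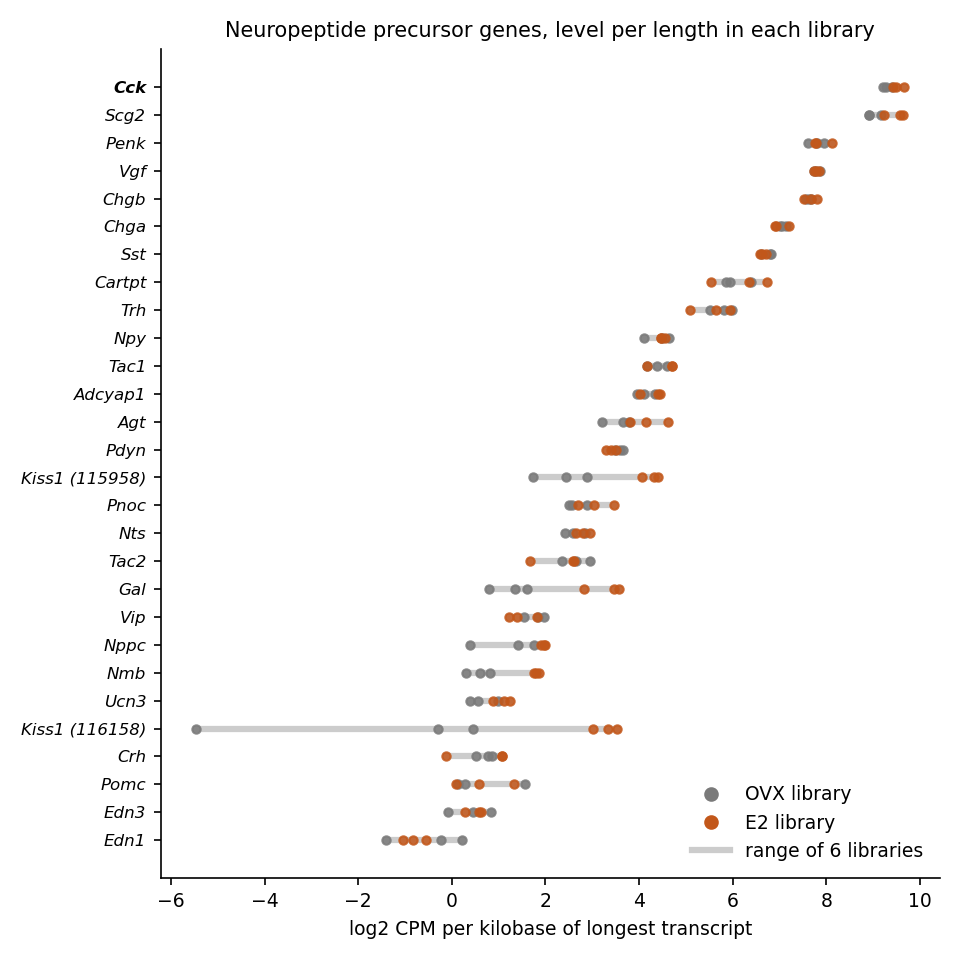
Log2 CPM per kilobase of the longest transcript for the 28 listed neuropeptide and granin precursor gene models, ordered by their mean, with 1 point per library (grey OVX, orange E2) and the range of the 6 libraries as a bar. *Cck* and *Scg2* stand together at the right, more than 1 log2 unit above *Penk*, and the 2 *Kiss1* models carry the end of their gene identifiers.

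Within this list 2 gene models passed the adjusted threshold, both higher with E2, against the 0.23% of all genes given above. They were *Kiss1* (ENSMUSG00000115958), the kisspeptin gene itself, and *Gal*, the galanin precursor. *Kiss1* rose by 1.91 on the log2 scale (adjusted p = 0.00475, limma), from 2.29, 1.82 and 1.13 log2 CPM in OVX replicates 1, 2 and 3 to 3.72, 3.80 and 3.45 in E2 replicates 1, 2 and 3. *Gal* rose by 2.04 (adjusted p = 0.00609, limma), from 1.26, 0.44 and 1.01 to 3.23, 3.13 and 2.48 log2 CPM in the same order. Both shifts were several times that of *Cck*, whose level in every library stayed far above theirs. *Cck* was 1 of 8 precursor models whose groups did not overlap and whose unadjusted p was under 0.05, all of them higher with E2, and 6.38% of all genes met these conditions in either direction. The others that missed the adjusted threshold were *Scg2* (difference 0.49, adjusted p = 0.0608), *Agt*, the angiotensinogen gene (0.64, adjusted p = 0.264), *Nppc*, the C-type natriuretic peptide gene (0.77, adjusted p = 0.541), *Nmb*, the neuromedin B gene (1.24, adjusted p = 0.281), and the second *Kiss1* model, ENSMUSG00000116158 (5.05, adjusted p = 0.0942), all by limma. How the reads of *Kiss1* were split between its 2 models is uncertain, and the gene counts as 2 of the 8. The second model stood at -5.82, -0.65 and 0.10 log2 CPM in OVX replicates 1, 2 and 3. By the filter the paper states, it passed only through the E2 group, so its direction is no support for a difference. The list was also chosen with earlier results of these data known. Over the 28 models the median difference was 0.12, against 0.0034 over all genes.

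The 15 genes chosen for CCK maturation and breakdown, among them enzymes, peptidases and proteins that bind the convertases, were all in the table. They are a selection and not the full set. None of these 15 genes passed the adjusted threshold, 4 had an unadjusted p under 0.05 (1 higher and 3 lower with E2), against 8.56% of all genes, and their median difference was 0.0052. By level per kilobase the first was *Cpe* (carboxypeptidase E, which trims basic residues from peptide ends) at 9.40 log2 CPM per kilobase, about the level of *Cck*. It was followed by *Pcsk1n* (proSAAS, an inhibitor of PC1/3) at 8.30, *Scg5* (7B2, the chaperone of PC2) at 7.66, *Pcsk2* (the convertase PC2) at 6.28 and *Pam* (the amidating enzyme) at 6.14. The tyrosylprotein sulfotransferases *Tpst1* and *Tpst2*, which can sulfate the peptide, stood at 4.14 and 3.46 log2 CPM per kilobase.

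Among the convertases of the list, *Pcsk1* and *Pcsk2* showed opposite signs. The convertase gene *Pcsk5* had a difference of 0.35 (SE 0.17, adjusted p = 0.600, limma), and its groups overlapped. *Pcsk1*, which encodes PC1/3, was at 5.99, 6.01 and 6.14 log2 CPM in OVX replicates 1, 2 and 3, and at 6.35, 6.23 and 6.20 in E2 replicates 1, 2 and 3. Its groups did not overlap, with the E2 libraries higher by 0.21 (SE 0.07, adjusted p = 0.397, limma). *Pcsk2* was at 8.60, 8.60 and 8.58 in OVX and 8.41, 8.43 and 8.52 in E2 libraries, in the same order. Here the E2 libraries were the lower ones, by a difference of -0.14 (SE 0.05, adjusted p = 0.454, limma). *Cpd* (carboxypeptidase D, which acts in the trans-Golgi) was at 7.09, 6.97 and 6.97 in OVX and 6.87, 6.65 and 6.82 in E2 libraries. Its difference of -0.23 (SE 0.07, adjusted p = 0.316, limma) also left the groups without overlap. As for *Cck* itself, the differences of *Pcsk1*, *Pcsk2*, *Pcsk5* and *Cpd* fall short of the threshold set by all genes.

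Downstream of the receptors, 39 of 40 genes were in the table, *Gna14* being the one not listed. None passed the adjusted threshold, 8 had an unadjusted p under 0.05 (2 higher and 6 lower with E2) against 8.56% of all genes, 16 had a difference above 0 and 23 below, and the median was -0.017. The subunits through which CCKBR usually couples, *Gnaq* and *Gna11*, were at 5.10 and 5.27 log2 CPM per kilobase and differed by -0.014 (SE 0.05) and -0.044 (SE 0.06), and *Plcb1*, a phospholipase C that they activate, was at 5.04 and differed by -0.040 (SE 0.06). High levels per kilobase were those of *Gnas* (the stimulatory G protein, which CCKAR can also engage) at 8.75, *Mapk3* (a MAP kinase) at 7.13 and *Ptk2b* (PYK2, a calcium-responsive tyrosine kinase) at 7.04.

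*Prkca*, which encodes protein kinase C alpha, had the smallest p-value among the genes named from this list. It was at 7.51, 7.46 and 7.49 log2 CPM in OVX replicates 1, 2 and 3, and at 7.67, 7.76 and 7.74 in E2 replicates 1, 2 and 3. Both groups were tight and apart from each other, and the difference was 0.23 (SE 0.05, adjusted p = 0.125, limma). Groups also did not overlap for *Ptk2b* (-0.25, adjusted p = 0.240), *Dgkz* (diacylglycerol kinase zeta, -0.18, adjusted p = 0.400) and *Plcb4* (a phospholipase C, 0.27, adjusted p = 0.404), with unadjusted p-values under 0.05 in limma. In all, 5 of the 39 genes met both conditions, against 6.38% of all genes.

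**Figure D3:**
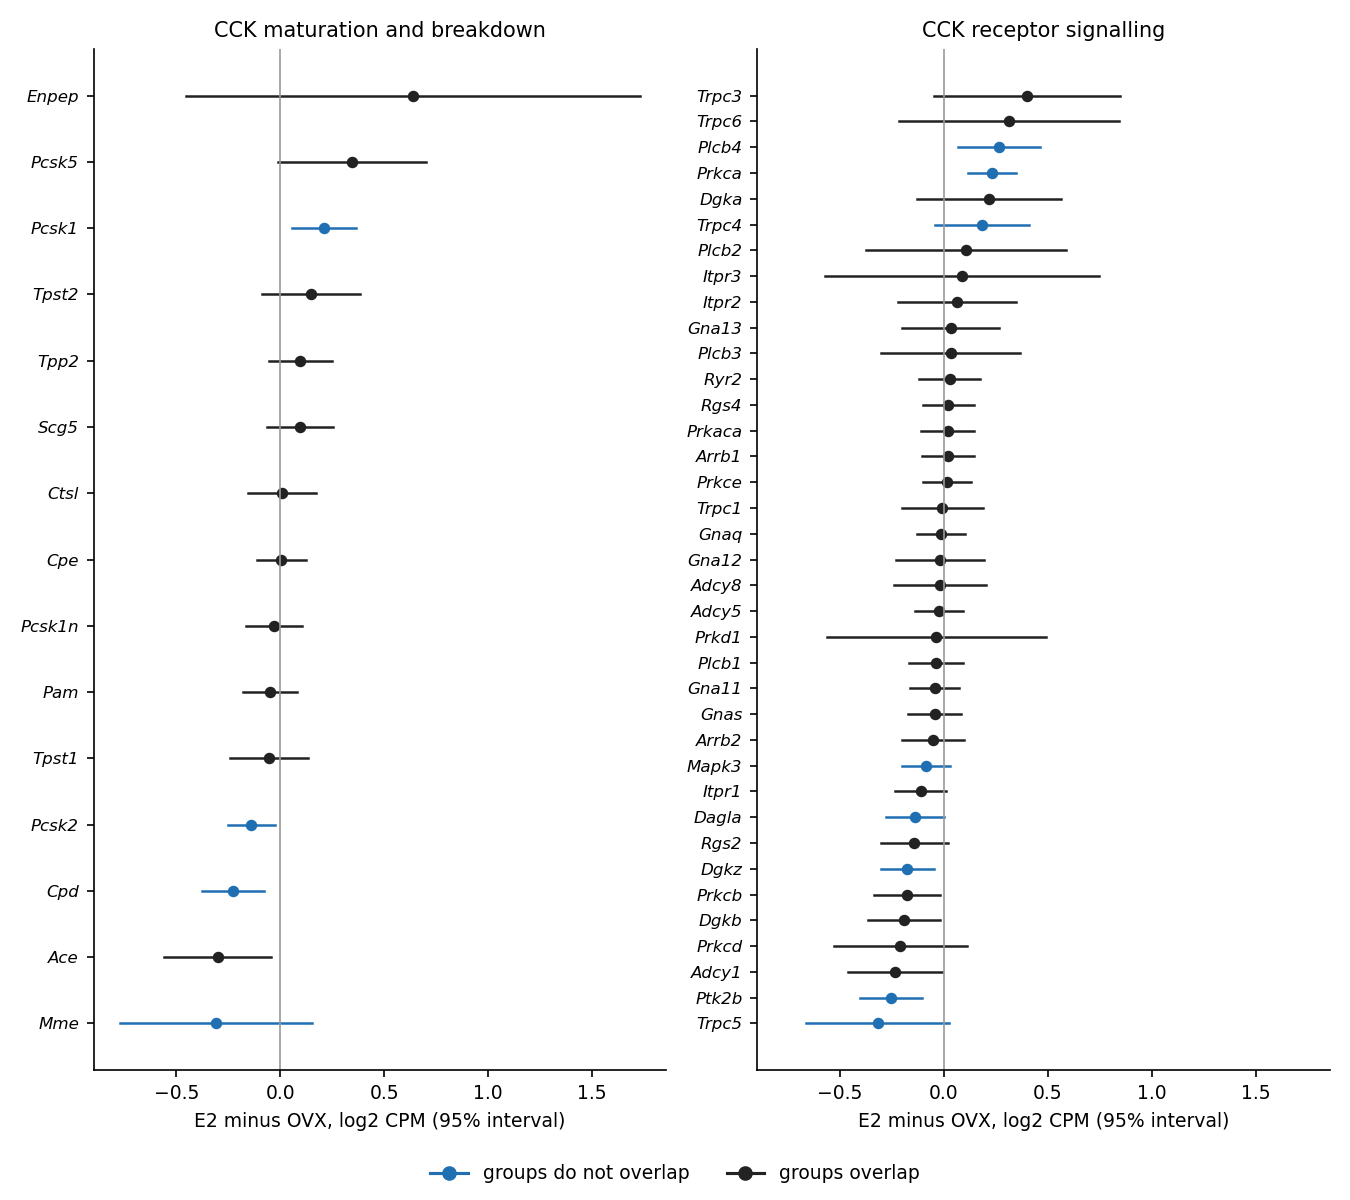
Differences in log2 CPM, E2 minus OVX, with the 95% interval from limma for the 15 genes of CCK maturation and breakdown (left) and genes of receptor signalling (right), ordered by size, with genes whose groups do not overlap in blue. None passed the adjusted threshold, and most intervals include 0. Among the genes in blue, *Pcsk1*, *Prkca* and *Plcb4* lie to the right of it and *Pcsk2*, *Cpd*, *Ptk2b* and *Dgkz* to the left. The intervals of some genes whose groups overlap also lie wholly to the left of 0.

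A list of 9 genes, *Kiss1* and *Esr1* among them, was chosen to look at the label of the cells. All 9 names were in the table, as 10 gene models, and 3 models passed the adjusted threshold, against 0.288% of all genes. These were *Kiss1* (above), *Ecel1* (an endopeptidase-like protein), which was higher with E2 by 1.15 (adjusted p = 7.99e-05, limma), and *Esr1* (estrogen receptor alpha), which was lower by a difference of -0.70 (adjusted p = 0.0189, limma). Their presence does not show that all the RNA came from tagged cells. Markers of glia and vessels, which the *Kiss1* Cre driver should not tag, were in the table as well, with summed levels of 1340 to 1724 CPM in OVX and 1444 to 1750 CPM in E2 libraries for the 6 astrocyte genes.

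Since *Cck* is also made by forebrain excitatory neurons and by a class of interneurons, their markers are given beside it. All 8 genes of the list for forebrain excitatory neurons had a difference below 0, with a median of -0.45, a sign opposite to that of *Cck*. None passed the adjusted threshold and 6 had an unadjusted p under 0.05, against 8.56% of all genes. Their summed level was 1158, 983 and 905 CPM in OVX replicates 1, 2 and 3, and 745, 685 and 895 CPM in E2 replicates 1, 2 and 3, so the groups did not overlap, with OVX replicate 3 and E2 replicate 3 next to each other. The highest of them was *Slc17a7* (the vesicular glutamate transporter VGLUT1), which made up most of this sum in every library. The paper counts VGLUT1 among the transcripts of MeA *Kiss1* cells, and which cells gave these transcripts was not tested. It was the only 1 of the 8 genes whose own groups did not overlap, against 13.7% of all genes. *Slc17a7* had a difference of -0.42 (adjusted p = 0.174, limma), and passed only without E2 replicate 3 (adjusted p = 0.0292, limma). The next were *Tbr1* (-0.048) and *Neurod2* (-0.35), transcription factors of these neurons. The library highest in *Cck*, E2 replicate 2, was the lowest in this sum. At the other end the libraries differed, as the sum was highest in OVX replicate 1 and *Cck* was lowest in OVX replicate 2. The sum's part in the *Cck* values was not tested.

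The 7 markers of *Cck* interneurons were all in the table and had a median difference of -0.084, and none passed the adjusted threshold. Their summed level was 171 to 179 CPM in OVX and 166 to 171 CPM in E2 libraries. The highest, *Cnr1* (the cannabinoid receptor CB1), differed by -0.084 (adjusted p = 0.771, limma) with groups that did not overlap, *Dlx1* by -0.18, and *Adarb2* by 0.39 (adjusted p = 0.270, limma) with the E2 libraries higher. Among the other lists, the median difference was 0.13 for astrocyte, 0.10 for oligodendrocyte, 0.069 for endothelial and mural, -0.018 for neuron, -0.028 for striatal neuron, -0.072 for microglia and -0.61 for choroid plexus genes, with 0 genes past the adjusted threshold in limma. At an unadjusted p under 0.05 there were 1 of 6 astrocyte, 1 of 6 oligodendrocyte and 2 of 5 choroid plexus genes, against 8.56% of all genes. Of the 7 *Cck* interneuron markers, 1 (*Adarb2*) was under it. Anterior pituitary transcripts varied most between libraries, from 2.02 CPM in E2 replicate 3 to 1029 CPM in OVX replicate 2. Of that list's 6 names, 3 were listed. OVX replicate 2 was also the library lowest in both *Cck* and *Cckbr*. E2 replicate 2, which had the next highest pituitary sum (228 CPM), was the library highest in *Cck*. Without OVX replicate 2 the difference was 0.19 for *Cck* (adjusted p = 0.416, limma) and -0.14 for *Cckbr* (adjusted p = 0.686, limma). The part of the other signals in the *Cck* values was not tested.

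**Figure D4:**
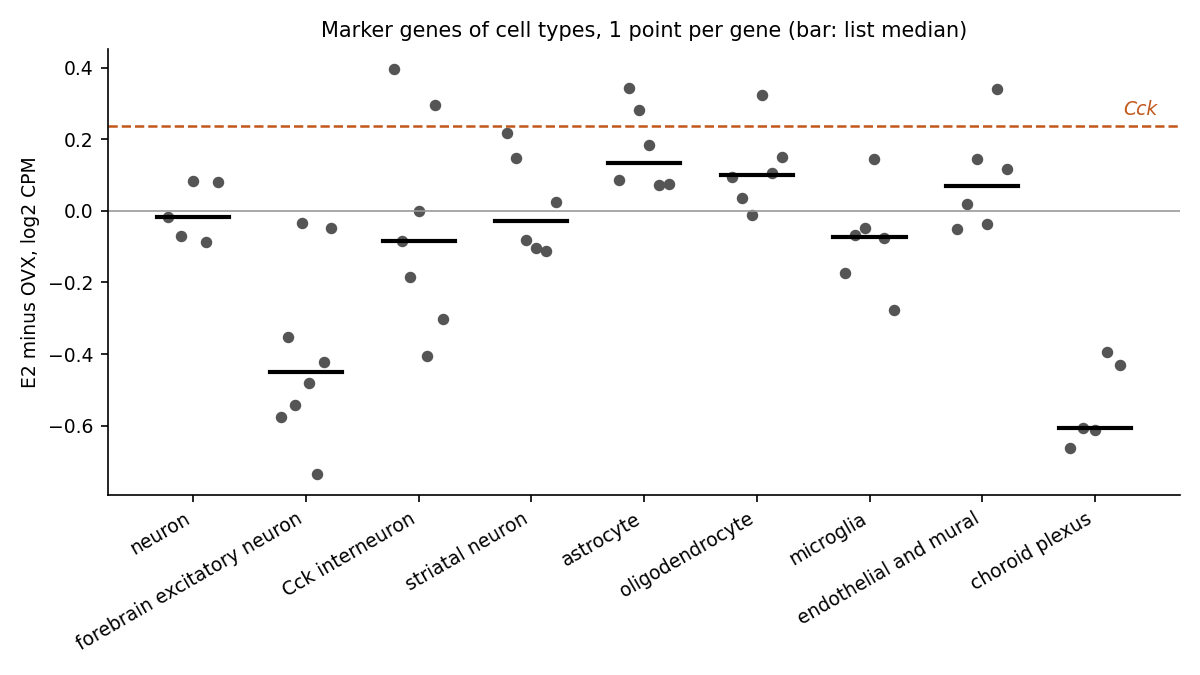
Differences in log2 CPM, E2 minus OVX, of the marker genes of 9 cell types, 1 point per gene, with the median of each list as a bar and the difference of *Cck* (0.24) as a dashed line. The genes of forebrain excitatory neurons and of choroid plexus lie below 0, whereas those of astrocytes lie above it, none of them past the adjusted threshold.

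The genes whose log2 CPM followed that of *Cck* most closely over the 6 libraries were *Dpp6* (a subunit of A-type potassium channels, Pearson's r = 0.997), *Pfn2* (profilin 2, an actin-binding protein, 0.995), *Spock1* (testican 1, a proteoglycan, 0.994), *Rps18* (a ribosomal protein, 0.994) and *Med4* (a Mediator subunit, 0.993). These are the highest of 10583 genes with a mean log2 CPM of at least 3, chosen for their likeness over only 6 libraries that share their depth and scaling, and they are a description with no test. In each of the 5 all E2 libraries lay above all OVX libraries, as for *Cck* and for 6.85% of all genes. This separation follows from the choice by likeness to *Cck* and is no further result. The differences were 0.11 to 0.20, with adjusted p-values of 0.424 to 0.688 in limma. The genes most like *Cckbr* were *Cbwd1* (0.989), *Letmd1* (0.986), *Mark4* (a microtubule-affinity regulating kinase, 0.982), *Use1* (a SNARE of the Golgi and endoplasmic reticulum, 0.970) and *Eps15l1* (an endocytic adaptor, 0.968). In all 5 the groups overlapped, which likewise follows from the choice by likeness. Over all genes, 13.7% had groups without overlap in either direction.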

How the data were processed

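Per the labels and the study's methods, RNA from 6 pooled MeA IP samples of KissRibo mice was made into unstranded poly(A) libraries. The authors checked reads with FastQC 0.11.8, trimmed them with Trimmomatic 0.38 and aligned them with STAR 2.6.0a. They quantified reads with RSEM on GRCm38 and scaled libraries by TMM. By the paper's account, they kept protein-coding genes whose mean CPM passed 1 in either group. In the deposited values 13868 of the 13886 genes met that rule. The deposited values are log2 CPM made by the authors with voom, without weights. A deposited table of the authors' own comparison, which gives mean levels, log2 fold changes, moderated statistics (a score), and raw and adjusted p-values, was not used.

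Scaled library sizes of 28.1M to 34.2M reads were computed here from the lowest value of each library, taken as 0 reads plus the offset of voom. Counts rebuilt from them had at most 2 decimals, as RSEM gives, and were rounded for *Cckar*. These sizes and counts rest on that assumption. Per-kilobase levels used transcript lengths of GENCODE release M21 (GRCm38).

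Groups came from the treatment in the labels. E2 and OVX were compared with limma 3.58.1 in R 4.3.3 on all 13886 genes, with a mean-variance trend and no term but treatment. The p-values are 2-sided, were adjusted by Benjamini-Hochberg across the table, and were called under an adjusted 0.05. Prior degrees of freedom were 9.55, and a log2 difference had a median SE of 0.11, which limits what 3 libraries a group can show. The pipeline was tested on simulated data. Single values were tested by exact permutation (2-sided). The labels do not state that replicate numbers pair the samples. Deviations from the group means correlated at -0.02, -0.12 and -0.08 between same-numbered libraries. These values show no shared deviation over all genes, but cannot tell whether pools were handled in pairs.

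The members and lists were chosen with earlier results of these data known. Named genes are the members, list genes past the adjusted threshold, list genes with an unadjusted p under 0.05 and no overlap of groups, the 5 highest per kilobase of a list, the 3 highest of a marker list and the 5 most like *Cck* or *Cckbr*. *Gnaq*, *Gna11*, *Plcb1*, *Tpst1*, *Tpst2*, *Pcsk5*, *Gna14*, *Avp* and *Oxt* were added for their role after their values were seen. A few genes meeting the rule are not reported here by name or in a plot, but stay in the counts. Alternatives were the fit without trend, rebuilt voom weights, library quality weights, median centring, quantile normalization, stricter filters, log2 of CPM plus 1 or 0.1, robust empirical Bayes, a replicate block and each library left out, and those for *Cckar* were added after seeing the data.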

Additional observations from a re-analysis of the deposited data

How the results depend on the processing

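*Cck* stayed positive and short of the adjusted threshold in all 17 alternatives, with adjusted p-values of 0.132 to 0.692 in limma and a difference of 0.17 to 0.29 when single libraries were left out, the lowest without E2 replicate 2. *Cckar* stayed positive (0.75 to 3.38) with adjusted p-values of 0.211 to 0.898 in limma, and a filter at a mean log2 CPM of 1 removed it. The constant sign of *Cckar* is no support for a difference, because by the filter the paper states the gene passed only through the E2 group. *Cckbr* ranged from -0.14 to 0.058 with single libraries left out and changed sign without OVX replicate 1 (0.058). The replicate block, a pairing that the labels do not state, left *Cck* at 0.24 (adjusted p = 0.612, limma) and changed no call of the 3 genes. With this block, 35 of all genes passed.

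Over all genes 40 passed, 0 in the limma fit without the trend (1017 at an unadjusted p under 0.05), and 20 to 66 with a library left out (20 without E2 replicate 2, 21 without OVX replicate 1, 26 without E2 replicate 1, 66 without E2 replicate 3). Among the precursors 2 passed, 0 without the trend, 4 with voom weights or quantile normalization, and 1 to 4 with a library left out, as *Gal* missed the threshold without E2 replicate 2 (adjusted p = 0.0705, limma). *Scg2* passed in 5 alternatives, the second *Kiss1* model in 8, and *Esr1* missed in 4 (adjusted p = 0.407 without the trend, limma). Marker genes of other cells that passed numbered 0 to 1 with a library left out. The place of *Cck* among the precursors was 4 without length. Of 438 alternative values, 404 kept their direction and side of the threshold or stayed within 1.5 times a count. The causes of the moves were not tested. The OVX level of *Cckar* rests on 47 reads in all, and that of *Cck* on at least 13985 reads in each library.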
